A study of Homo sapiens with 14 samples.

Results

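The genes described here mark or drive epithelial-mesenchymal transition (EMT), and their RNA was sequenced in MDA-MB-231, an established line derived from a human breast cancer. A list of 10 symbols was matched to the deposited expression table of 13734 genes, and 7 of them were found: VIM, FN1, ZEB1, ZEB2, SNAI1, SNAI2 and EPCAM. TWIST1, CDH1 and CDH2 were not analysed here. The 14 libraries form 7 groups of 2, all of the same cell line with no stated genetic change. Control siRNA cells served for both knockdowns. YAP/TAZ siRNA was given as mix 1 or mix 2 for 48 h, and BRD siRNA as mix A or mix B for 72 h. YAP1 (YAP) and WWTR1 (TAZ) are paired co-activators of transcription that Hippo signalling holds in check. The BRD genes, BRD2 and BRD3 among them, encode BET proteins, which read acetylated histones. The last pair of groups was JQ1, a BET bromodomain inhibitor, at 1 µM for 24 h, and DMSO, its solvent. The harvest times of the control siRNA and DMSO libraries are not in the labels, and nothing there says that replicates came from separate cultures, which means that p-values here reflect only how far these libraries spread, possibly for technical reasons.

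In EMT, epithelial cells loosen their junctions and polarity and take on a migratory, mesenchymal form. Transcription factors of the Snail (SNAI1, SNAI2) and ZEB (ZEB1, ZEB2) families bind E-box sequences in epithelial genes such as CDH1 and repress them, while VIM, an intermediate filament protein, and FN1, a matrix glycoprotein, accumulate. EPCAM, an epithelial surface adhesion protein, is typically lost. MDA-MB-231 is commonly classed as a basal B, mesenchymal-like line.

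The promoters of 3 of these genes are shown because ZEB1 and ZEB2 fell together with JQ1 and FN1 rose after YAP/TAZ siRNA. Windows of 4 of the 7 genes were taken from the RefSeq promoter table (GRCh38.p14): ZEB1, ZEB2, FN1 and VIM. SNAI1, SNAI2 and EPCAM had no entry used here. Each window is the 250 bases before the transcription start, 5′ to 3′ on the gene's strand. Capitals mark a match to the E-box CACCTG on either strand, which reads CAGGTG on the strand shown.
ZEB1: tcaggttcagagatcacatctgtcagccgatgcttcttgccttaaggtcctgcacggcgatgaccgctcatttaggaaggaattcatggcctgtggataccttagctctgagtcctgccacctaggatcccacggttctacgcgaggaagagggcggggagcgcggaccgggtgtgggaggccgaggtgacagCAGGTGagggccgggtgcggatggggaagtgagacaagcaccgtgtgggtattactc
ZEB2: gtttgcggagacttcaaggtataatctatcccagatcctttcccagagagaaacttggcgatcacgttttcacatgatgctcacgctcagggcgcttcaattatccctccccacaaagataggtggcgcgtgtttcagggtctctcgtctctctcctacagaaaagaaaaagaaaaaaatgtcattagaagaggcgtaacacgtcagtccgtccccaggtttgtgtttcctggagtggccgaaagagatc
FN1: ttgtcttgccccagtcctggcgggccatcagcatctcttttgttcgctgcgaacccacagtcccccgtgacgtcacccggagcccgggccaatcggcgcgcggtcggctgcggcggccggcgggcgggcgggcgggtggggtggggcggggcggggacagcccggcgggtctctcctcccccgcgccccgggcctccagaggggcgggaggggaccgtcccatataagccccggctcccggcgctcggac
The ZEB1 window is chr10:31318167-31318416 on the plus strand, before the most upstream of its 7 listed starts, with an E-box that begins 57 bases before the start. The ZEB2 window is chr2:144520120-144520369 and the FN1 window chr2:215436069-215436318, both on the minus strand, and neither held the E-box. Searched on both strands, the TEAD motif GGAATG and the AP-1 motif TGANTCA were found in none of the ZEB1, ZEB2, FN1 and VIM windows. Over 35116 promoter windows of the same length, 17.5% held CACCTG, 11.9% GGAATG and 6.57% TGANTCA. These are matches of letters, not measured binding.

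Values are scaled RPM, that is reads relative to a library size that the authors had scaled, and folds come from limma on log2(scaled RPM + 1), which understates changes of low genes. Knockdown effects are means over both mixes unless a mix is named, and their p-values leave out the gap between the mixes. Reads assigned to genes numbered 15741695 to 37311326 per library, with a median of 23539829. The targeted genes fell as labelled: YAP1 averaged 182 with control siRNA and 21.6 with YAP/TAZ siRNA, WWTR1 130.9 and 14.5, and with BRD siRNA BRD2 went from 251.8 to 174.6 and BRD3 from 31.1 to 9.76. With JQ1, BRD2 stood at 936.8 against 248.8 in DMSO. All 6 markers of the line (VIM, CD44, MSN, AXL, CAV1, EGFR) were in the table, whereas ESR1 and PGR were not analysed here, FOXA1 averaged at most 1.22 in any group, and ERBB2 was at 46.5 to 98.0 across libraries. Of 10 leukocyte markers 4 were in the table, with summed levels of 38.2 to 183 across libraries (PTPRC and CD3E were not analysed here), and of 12 fibroblast and endothelial markers 4, with sums of 12.2 to 53.2. In total RNA from a dish, fewer cells of a type and less RNA per cell cannot be told apart.

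The 7 genes spanned a wide range of expression. Per kilobase of exon, the mean level over all libraries was 2140 scaled RPM for VIM, 51.8 for FN1, 18.0 for ZEB1, 7.93 for SNAI2, 5.51 for EPCAM, 0.659 for ZEB2 and 0.363 for SNAI1. The mesenchymal filament and matrix genes thus stood above the transcription factors, ZEB1 above ZEB2, and SNAI2 above SNAI1. SNAI1 reached a scaled RPM of 1 in 2 libraries, both JQ1, and so entered the fit only through the group where it was high. Counts of called genes below are therefore over the other 6, which passed the filter in every library.

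**Figure D1:**
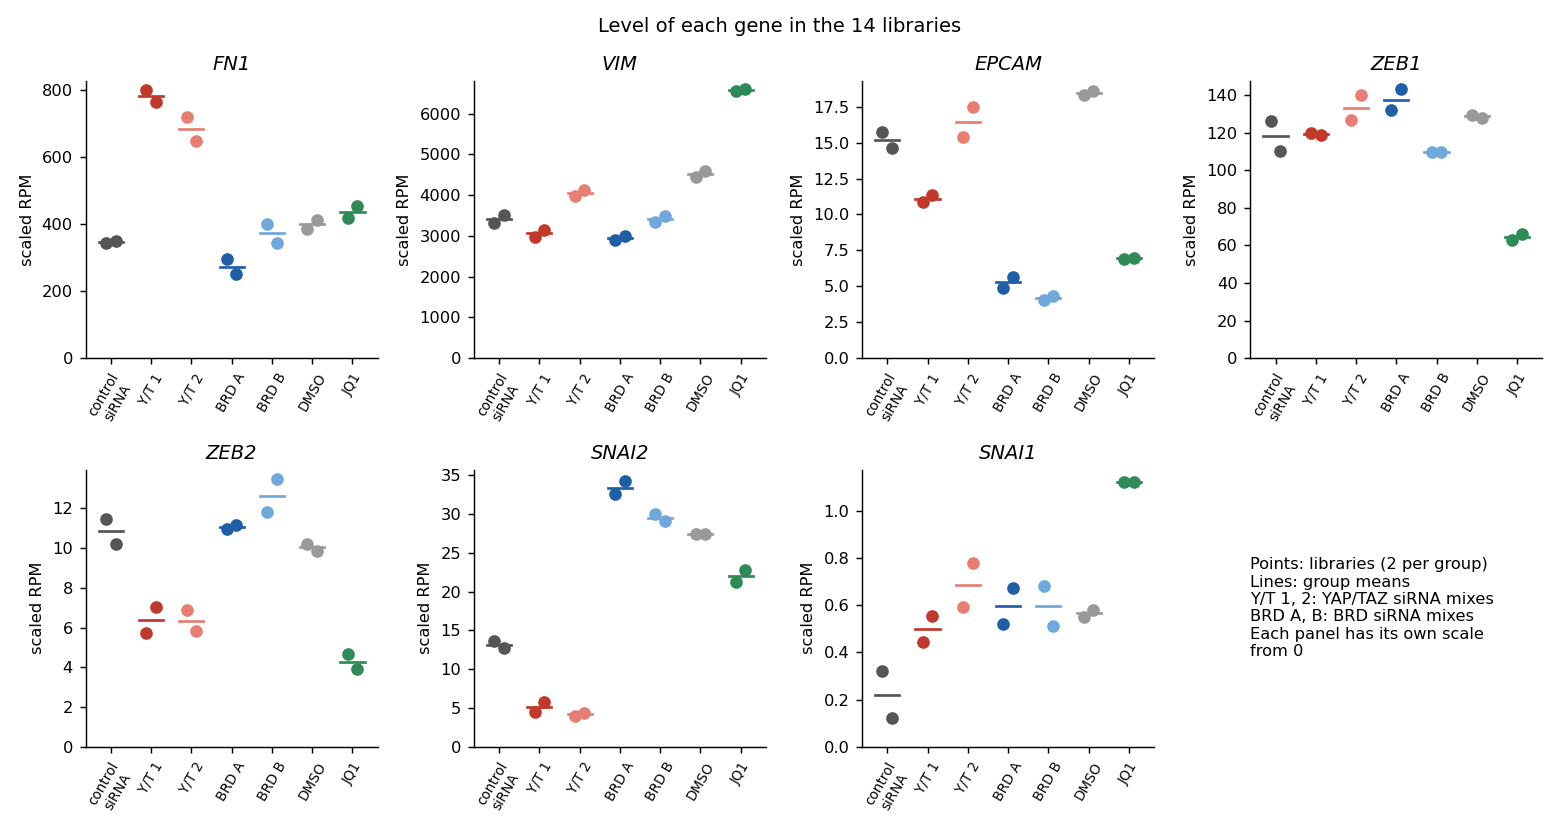
Scaled RPM (linear axis from 0, own scale per gene) of the 7 genes in each of the 14 libraries; points are libraries and lines are group means of 2. FN1 is highest in the YAP/TAZ siRNA libraries (647 to 800.1), ZEB1 lowest with JQ1 (62.7 and 66.2), EPCAM lowest with BRD siRNA (4.05 to 5.64), and SNAI2 spans 3.95 to 34.2.

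Of the 6 genes, 3 changed after YAP/TAZ siRNA: FN1 rose 2.11-fold, SNAI2 fell 2.52-fold and ZEB2 fell 1.61-fold. In the same fit 78.9% of all 13674 tested genes were called (43.1% higher, 35.9% lower), so a share of 3 in 6 is no more than the background. After BRD siRNA 2 changed: SNAI2 rose 2.29-fold and EPCAM fell 2.84-fold, where 75.2% of all genes were called (37.6% higher, 37.6% lower). JQ1 changed 5: VIM rose 1.46-fold, and EPCAM fell 2.44-fold, ZEB2 2.09-fold, ZEB1 1.99-fold and SNAI2 1.24-fold, where 73.9% of all genes were called (37.6% higher, 36.3% lower). The median log2 fold change of the 6 was -0.06, -0.02 and -0.65 in the 3 comparisons, beside 0.07, -0.00471 and 0.01 over all genes.

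**Figure D2:**
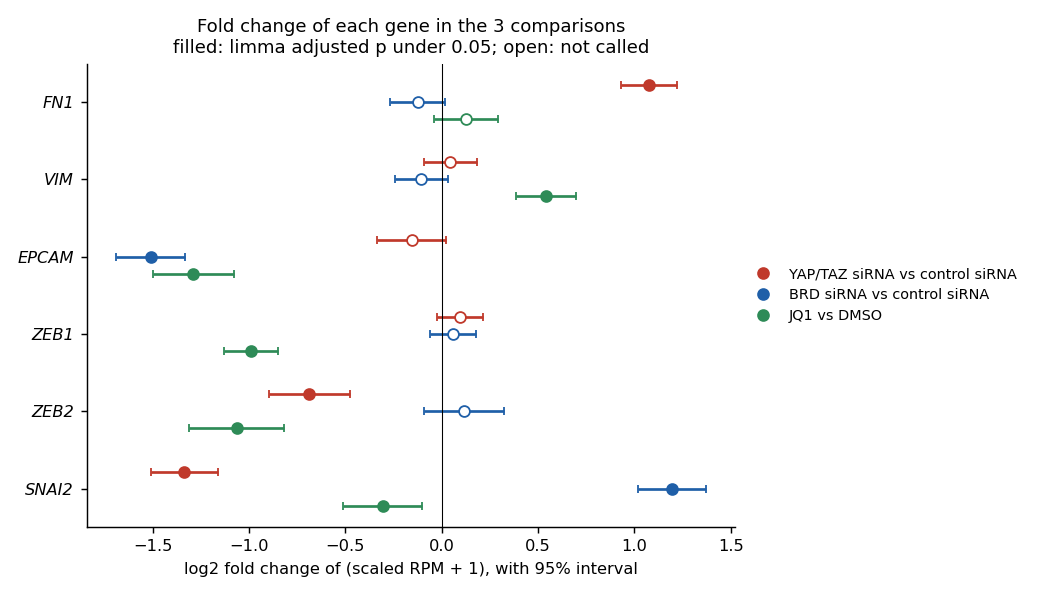
Log2 fold change of log2(scaled RPM + 1), with 95% intervals, of 6 genes after YAP/TAZ siRNA, BRD siRNA and JQ1, each against its own control; filled points have a limma adjusted p under 0.05. SNAI2 lies at -1.34 after YAP/TAZ siRNA and 1.20 after BRD siRNA, and EPCAM at -1.51 after BRD siRNA and -1.29 with JQ1.

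ZEB1, a zinc finger and homeodomain repressor of epithelial genes, fell with JQ1, and neither knockdown called it when both mixes were averaged. It stood at 129.6 and 128.1 in the DMSO libraries and at 62.7 and 66.2 with JQ1. Every other library lay between 109.9 and 143.5, so the JQ1 libraries were apart from all 12 others. The log2 fold change was -0.99 (SE 0.066, limma adjusted p = 2.06e-11). Control siRNA gave 126.2 and 110.5, YAP/TAZ siRNA 119.8 and 119.0 with mix 1 and 126.9 and 139.9 with mix 2, and BRD siRNA 131.9 and 143.5 with mix A and 109.9 and 110.0 with mix B. YAP/TAZ mix 1 lay within the control range and mix 2 above it, and BRD mix A lay above the control range and mix B below it. Averaged over mixes, the log2 fold changes were 0.09 (95% interval -0.025 to 0.213, limma adjusted p = 0.136) for YAP/TAZ siRNA and 0.06 (-0.0609 to 0.178, adjusted p = 0.362) for BRD siRNA. Alone, mix 2 gave 0.17 (limma adjusted p = 0.0219) and mix A 0.22 (adjusted p = 0.00552), both called higher, while mix 1 gave 0.02 (adjusted p = 0.842) and mix B -0.10 (adjusted p = 0.174). Both averages depend on 1 control library: without control siRNA replicate 1 they were 0.19 (adjusted p = 0.013) and 0.15 (adjusted p = 0.0414), and without replicate 2 -0.0013 and -0.04. The difference between the JQ1 and BRD siRNA effects on ZEB1 was -1.05 (SE 0.0874, limma adjusted p = 2.68e-09). The antisense neighbour ZEB1-AS1, chosen after its values were seen, averaged 4.05 in DMSO and 4.38 with JQ1. The kit was stranded, but no source used here says how strand was treated in counting, so reads of the pair cannot be told apart with certainty.

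ZEB2, the paralogue of ZEB1, fell both with JQ1 and after YAP/TAZ siRNA. It measured 10.2 and 9.86 in DMSO and 4.65 and 3.93 with JQ1, from 112 to 357 reads a library. Control siRNA gave 11.5 and 10.2, and YAP/TAZ siRNA 5.75 and 7.03 with mix 1 and 6.88 and 5.83 with mix 2. In both comparisons the groups did not overlap. The fall was -1.06 with JQ1 (SE 0.116, limma adjusted p = 4.96e-08) and -0.69 with YAP/TAZ siRNA (SE 0.101, limma adjusted p = 2.72e-06), with -0.68 and -0.69 for the separate mixes. BRD siRNA left ZEB2 at 10.9 and 11.2 with mix A and 11.8 and 13.5 with mix B, a log2 fold change of 0.12 (95% interval -0.0946 to 0.325, limma adjusted p = 0.306). The JQ1 effect differed from that of BRD siRNA by -1.18 (limma adjusted p = 1.43e-06) and from that of YAP/TAZ siRNA by -0.38 (adjusted p = 0.0387). The second of these differences missed the threshold when any 1 of 6 libraries was left out: control siRNA replicate 2 (-0.30), YAP/TAZ mix 1 replicate 2 (-0.31), mix 2 replicate 1 (-0.32), DMSO replicate 1 (-0.35) or 2 (-0.40), or JQ1 replicate 2 (-0.28). Those adjusted p ranged from 0.0668 to 0.179 by limma.

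SNAI2 (Slug), a Snail family repressor, fell after YAP/TAZ siRNA and rose after BRD siRNA. It stood at 13.6 and 12.7 with control siRNA, and at 4.45 and 5.75 with YAP/TAZ siRNA mix 1 and 3.95 and 4.405 with mix 2. BRD siRNA libraries were at 32.6 and 34.2 with mix A and 29.9 and 29.1 with mix B. DMSO gave 27.39 and 27.45, and JQ1 21.2 and 22.8. From lowest to highest, no group overlapped its neighbour: YAP/TAZ mix 2, YAP/TAZ mix 1, control siRNA, JQ1, DMSO, BRD mix B and BRD mix A. The log2 fold change against control siRNA was -1.34 for YAP/TAZ siRNA (SE 0.0852, limma adjusted p = 7.29e-12) and 1.20 for BRD siRNA (SE 0.0852, limma adjusted p = 5.8e-11). The controls themselves differed by 1.01 (SE 0.0984, DMSO higher, limma adjusted p = 4.1e-08). Set against DMSO, the BRD siRNA difference shrank to 0.19 (adjusted p = 0.0499), and that of YAP/TAZ siRNA grew to -2.34 (adjusted p = 2.83e-16). JQ1 lowered SNAI2 by a smaller step, -0.31 (SE 0.0984, limma adjusted p = 0.00818), which missed the threshold without JQ1 replicate 1 (-0.26, adjusted p = 0.0722). The JQ1 and BRD siRNA effects differed by -1.502 (SE 0.13, limma adjusted p = 4.68e-09).

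SNAI1 (Snail), a repressor of CDH1, rested on few reads. It had 6 and 2 reads with control siRNA, 11 to 17 with YAP/TAZ siRNA, 11 to 20 with BRD siRNA, 17 and 21 with DMSO, and 28 and 32 with JQ1. In scaled RPM these are 0.320 and 0.120, 0.445 to 0.780, 0.511 to 0.680, 0.551 and 0.580, and 1.12 and 1.12. The control siRNA libraries were the lowest and the JQ1 libraries the highest. As ratios of pooled reads with 95% intervals that cover counting error only, JQ1 stood at 1.98 times DMSO (1.3 to 3.06), YAP/TAZ siRNA at 2.6 times control siRNA (1.23 to 6.32) and BRD siRNA at 2.68 times (1.28 to 6.48). Against DMSO the knockdown ratios were 1.04 (0.674 to 1.61) and 1.07 (0.701 to 1.65), and these ratios are descriptions of few reads. The ratios to control siRNA rest on 8 reads: without control siRNA replicate 1 they were 4.88 (1.29 to 41.3) and 5.03 (1.33 to 42.5), and without replicate 2 they were 1.84 (0.793 to 5.23) and 1.89 (0.822 to 5.36).

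VIM, the type III intermediate filament protein of mesenchymal cells, was the most abundant of the 7 in every group and was highest with JQ1. DMSO libraries gave 4457 and 4591 and JQ1 libraries 6551 and 6615. Both JQ1 libraries were above all 12 others, and the log2 fold change was 0.54 (SE 0.076, limma adjusted p = 1.78e-06). Control siRNA gave 3323 and 3514, YAP/TAZ siRNA 2982 and 3153 with mix 1 and 3978 and 4116 with mix 2, and BRD siRNA 2894 and 3008 with mix A and 3332 and 3497 with mix B. The YAP/TAZ mixes lay on opposite sides of the control, at -0.16 (adjusted p = 0.0692) and 0.24 (limma adjusted p = 0.00626), and their mean was 0.04 (95% interval -0.0934 to 0.181, adjusted p = 0.549). BRD siRNA gave -0.11 on average (95% interval -0.244 to 0.0305, limma adjusted p = 0.148), with mix A lower at -0.21 (adjusted p = 0.0167) and mix B at -0.0014 (adjusted p = 0.988). Against DMSO, where VIM was 0.40 higher than with control siRNA (limma adjusted p = 0.000143), YAP/TAZ siRNA came to -0.36 (adjusted p = 3.5e-05) and BRD siRNA to -0.51 (adjusted p = 4.11e-07). The JQ1 effect exceeded that of BRD siRNA by 0.65 (limma adjusted p = 1.26e-05). The antisense gene VIM-AS1, also chosen after its values were seen, averaged 7.495 in DMSO and 3.11 with JQ1, and 18.7 and 6.78 with YAP/TAZ mix 1 and mix 2.

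FN1, the matrix glycoprotein that integrins assemble into fibrils, rose after YAP/TAZ siRNA. Against their own controls, neither BRD siRNA averaged over mixes nor JQ1 called it. Control siRNA libraries were at 344.4 and 348.5, mix 1 at 800.1 and 765.7, and mix 2 at 719.3 and 647. All 4 knockdown libraries lay above the other 10, and the log2 fold change was 1.07 (SE 0.0685, limma adjusted p = 7.2e-12), or 0.87 against DMSO. BRD siRNA gave 294.8 and 251.1 with mix A and 402 and 343 with mix B, so the mixes fell on either side of the control, at -0.35 (adjusted p = 0.000522) and 0.10 (limma adjusted p = 0.267). Their mean of -0.12 (95% interval -0.267 to 0.019, limma adjusted p = 0.108) passed the threshold without mix A replicate 1 (-0.18, adjusted p = 0.0112) or mix B replicate 1 (-0.18, adjusted p = 0.0242), and was -0.33 (adjusted p = 0.000169) against DMSO. DMSO gave 387.1 and 413.5 and JQ1 419.8 and 455.1, which do not overlap, with a log2 fold change of 0.13 (95% interval -0.0377 to 0.292, limma adjusted p = 0.153). A fit on the DMSO and JQ1 libraries alone called this change (adjusted p = 0.0303). The JQ1 effect differed from that of YAP/TAZ siRNA by -0.95 (SE 0.105, limma adjusted p = 1.09e-07). The 4 fibroblast and endothelial markers in the table (COL1A1, PDGFRB, PECAM1 and KDR) summed to 13.6 to 17.9 with control siRNA, 39.1 to 47.6 with YAP/TAZ siRNA and 32.7 to 53.2 with BRD siRNA, and the leukocyte markers to 67.5 to 69.7, 123 to 183 and 38.2 to 42.9. All 4 fibroblast and endothelial markers were called higher after YAP/TAZ siRNA (43.1% of all genes). After BRD siRNA only KDR rose (2.65, limma adjusted p = 2.08e-16), PDGFRB fell (-0.38, adjusted p = 0.00517), and COL1A1 and PECAM1 were not called. The part of all these markers in the FN1 values was not tested.

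EPCAM, the epithelial adhesion molecule of the set, fell after BRD siRNA and with JQ1. It stood at 15.7 and 14.6 with control siRNA and at 4.88 and 5.64 with BRD mix A and 4.05 and 4.30 with mix B. DMSO libraries gave 18.3 and 18.6 and JQ1 libraries 6.90 and 6.99. None of these treated libraries overlapped its control. The log2 fold change was -1.51 for BRD siRNA (SE 0.0863, limma adjusted p = 1.67e-12) and -1.29 for JQ1 (SE 0.0996, limma adjusted p = 2.14e-10). The difference between these effects was 0.22 (95% interval -0.0577 to 0.492, limma adjusted p = 0.163), an interval that reaches from a slightly larger to a clearly smaller fall with JQ1. YAP/TAZ siRNA gave 10.8 and 11.3 with mix 1, below the control, and 15.4 and 17.5 with mix 2, which overlaps it. These came to -0.42 (adjusted p = 0.000765) and 0.11 (limma adjusted p = 0.326), with a mean of -0.16 (95% interval -0.336 to 0.0239, adjusted p = 0.103). Against DMSO the mean was -0.42 (limma adjusted p = 0.000134), past the threshold.

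**Figure D3:**
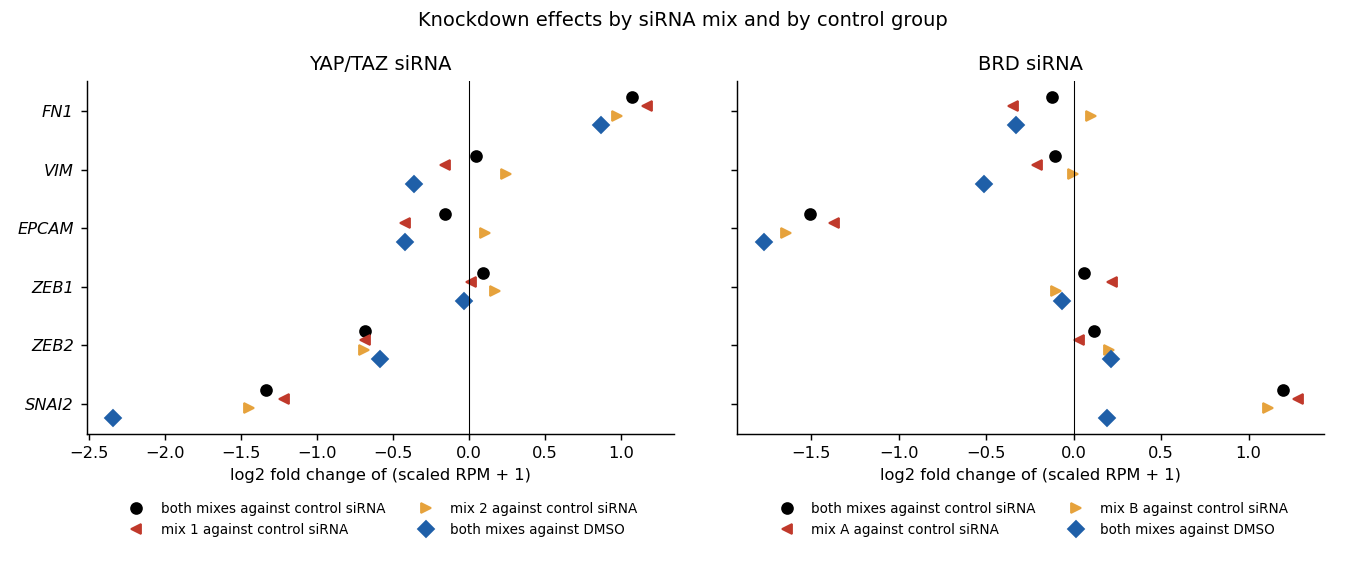
Log2 fold change of 6 genes after YAP/TAZ siRNA (left) and BRD siRNA (right), on the log2(scaled RPM + 1) scale, for the mean of both mixes, each mix alone and with DMSO in place of control siRNA. The SNAI2 value after BRD siRNA is 1.20 against control siRNA and 0.19 against DMSO, while EPCAM is -1.51 and -1.77.

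The tests of a difference between effects set JQ1 at 24 h against knockdowns of 48 h or 72 h, with different control libraries. JQ1 and BRD siRNA differed in 5 of 6 (60.1% of all genes), with EPCAM the exception and FN1 not firm, and JQ1 and YAP/TAZ siRNA in 6 of 6 (63.3% of all genes), with ZEB2 not firm. Whether these counts of 6 genes exceed the shares of all genes was not tested. Besides the left-out libraries given above, the ZEB2 difference missed the threshold at pseudocount 4 (-0.24, limma adjusted p = 0.0617) and with DESeq2 (-0.46, adjusted p = 0.0693). The FN1 difference between JQ1 and BRD siRNA, 0.25 (limma adjusted p = 0.0444), missed the threshold without either control siRNA library (0.26 and 0.24), mix A replicate 2 (0.19), mix B replicate 2 (0.19), DMSO replicate 1 (0.20) or JQ1 replicate 2 (0.19), with adjusted p of 0.0699 to 0.188. DMSO differed from control siRNA in 4 of 6, all higher in DMSO (VIM, FN1, SNAI2 and EPCAM), beside 54.2% of all genes, or 28.7% called higher. Of all calls in that comparison 53.1% were higher in DMSO, and 34.5% with plain totals, which left VIM and SNAI2 as the called genes of the 6. Of these 4, FN1 and EPCAM are not firm, at 0.21 (limma adjusted p = 0.0324) and 0.26 (adjusted p = 0.0302). FN1 lost its call without either control siRNA library or DMSO replicate 2, with values of 0.16 to 0.22 and adjusted p of 0.0771 to 0.193, and EPCAM without either DMSO library or control siRNA replicate 2, with values of 0.22 to 0.27 and adjusted p of 0.0953 to 0.15. ZEB1 gained a call without control siRNA replicate 1 (0.22, limma adjusted p = 0.0149). The siRNA mixes of 1 target also differed: mix 1 and mix 2 in 5 of 6 genes (65.7% of all genes) and mix A and mix B in 4 of 6 (50% of all genes).

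Among the other EMT transcription factors, 13 of 18 listed genes were in the table, and JQ1 lowered most of them. With JQ1, 2 rose, 9 fell and 2 were not called, with a median log2 fold change of -0.68 beside 0.01 over all genes. ETS1, the founding ETS family factor, fell by 0.77 (limma adjusted p = 9.33e-11), from 242.2 to 141.9 scaled RPM. FOXQ1, a forkhead factor, rose by 1.76 (limma adjusted p = 7.94e-16), from 25.5 to 88.6. YAP/TAZ siRNA raised 5 and lowered 3 of the 13, with a median of 0.02 beside 0.07. SOX4, an HMG-box factor linked to TGF-beta-induced EMT, went from 44.0 to 293.6 (2.71, limma adjusted p = 7.51e-19), though DMSO stood lower than control siRNA at 12.1. TCF4, a bHLH factor, rose by 1.41 (adjusted p = 7.65e-14). HMGA2, a chromatin protein upstream of SNAI1, fell by 1.31 (limma adjusted p = 4.53e-13): control siRNA stood at 109.4, mix 1 at 84.0, mix 2 at 22.01 and DMSO at 39.0. The gap between the mixes, left out of that p-value, was 1.88 on the log2 scale. BRD siRNA raised 6 and lowered 4, with a median of -0.06 beside -0.00471. Every list count here and below stands beside the same shares of all genes called. These were 43.1% higher and 35.9% lower after YAP/TAZ siRNA, 37.6% and 37.6% after BRD siRNA, and 37.6% and 36.3% with JQ1. The medians over all genes were 0.07, -0.00471 and 0.01 in that order.

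The epithelial transcription and splicing factors, 9 of 17 in the table, split in each comparison. YAP/TAZ siRNA raised 5 and lowered 2, BRD siRNA raised 2 and lowered 5, and JQ1 raised 4 and lowered 3, with medians of 0.25, -0.28 and 0.14. ESRP2, a splicing factor that sets epithelial isoforms, followed EPCAM: it averaged 5.59 with control siRNA, 0.733 with BRD siRNA, 6.41 in DMSO and 1.82 with JQ1. These are falls of 1.93 (limma adjusted p = 1.62e-11) and 1.41 (adjusted p = 2.35e-08). ELF3, an epithelial ETS factor, averaged 1.17 with control siRNA and 6.92 with YAP/TAZ siRNA, and TP63, a basal epithelial factor, 0.684 and 6.45. FOXA1, a forkhead factor of luminal cells, averaged 0.284 and 1.20. ELF3, TP63 and FOXA1 passed the filter only through the YAP/TAZ siRNA libraries, so no test is given for them. All of them are among the 5 counted as raised. That count and the median of 0.25 thus rest in part on genes that entered through the group where they were high.

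The partners and regulators of the Snail, ZEB and Twist factors were all in the table, 22 of 22. Of them YAP/TAZ siRNA raised 6 and lowered 11, BRD siRNA raised 7 and lowered 11, and JQ1 raised 9 and lowered 11, with medians of -0.06, -0.13 and -0.13. EZH2, the methyltransferase of Polycomb repressive complex PRC2, fell in all 3 comparisons, by 1.21, 1.49 and 1.73 on the log2 scale (largest limma adjusted p = 3.76e-14). ID1, an inhibitor of bHLH factors, rose from 61.1 to 498.2 with JQ1 (3.01, limma adjusted p = 1.16e-18). LOXL2, a lysyl oxidase that can stabilise Snail, rose by 1.58 after BRD siRNA (limma adjusted p = 2.41e-16). It rose less after YAP/TAZ siRNA (0.70, limma adjusted p = 7.48e-11) and with JQ1 (0.52, adjusted p = 1.03e-07).

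Junction genes fell in larger number than they rose after BRD siRNA. Of 32 epithelial junction, polarity and membrane genes in the table (40 listed), BRD siRNA raised 6 and lowered 21, with a median of -0.61 beside -0.00471 over all genes. Against DMSO the same libraries gave 8 higher and 14 lower, with a median of -0.10, so the split depends on the control. Over all genes BRD siRNA against DMSO gave 5353 higher and 5422 lower calls. YAP/TAZ siRNA raised 17 and lowered 9 (median 0.32), and JQ1 raised 16 and lowered 10 (median 0.18). DSG2, a desmosomal cadherin, fell after YAP/TAZ siRNA with a log2 fold change of -1.72 (limma adjusted p = 1.65e-16), and stood at 162.1 with control siRNA, 123.7 with mix 1 and 18.6 with mix 2. That p-value leaves out the gap between the mixes, which was 2.67 on the log2 scale. LLGL2, a basolateral polarity protein, went from 10.8 to 47.5 after YAP/TAZ siRNA (2.05, limma adjusted p = 3.03e-14) and from 6.78 to 39.1 with JQ1 (2.37, adjusted p = 4.64e-14).

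Of the cadherins and catenins other than CDH1 and CDH2, 12 of 17 were in the table. JQ1 raised 8 and lowered 2 (median 0.49), YAP/TAZ siRNA raised 6 and lowered 4 (median 0.29), and BRD siRNA raised 5 and lowered 4 (median 0.09). The 2 knockdown splits were near the shares of all genes (43.1% higher and 35.9% lower, and 37.6% and 37.6%). JUP (plakoglobin), which links cadherins to filaments, rose from 15.5 to 71.0 after YAP/TAZ siRNA (2.13, limma adjusted p = 2.65e-16) and from 4.05 to 29.6 with JQ1 (2.60, adjusted p = 1.82e-16). CDH11, a mesenchymal cadherin, rose by 0.84 after BRD siRNA (limma adjusted p = 1.33e-12), with mix A at 340.2, mix B at 207.9, control siRNA at 148.1 and DMSO at 218.5. CDH11 also rose by 0.93 after YAP/TAZ siRNA (limma adjusted p = 1.78e-13) and by 0.52 with JQ1 (adjusted p = 2.42e-08).

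**Figure D4:**
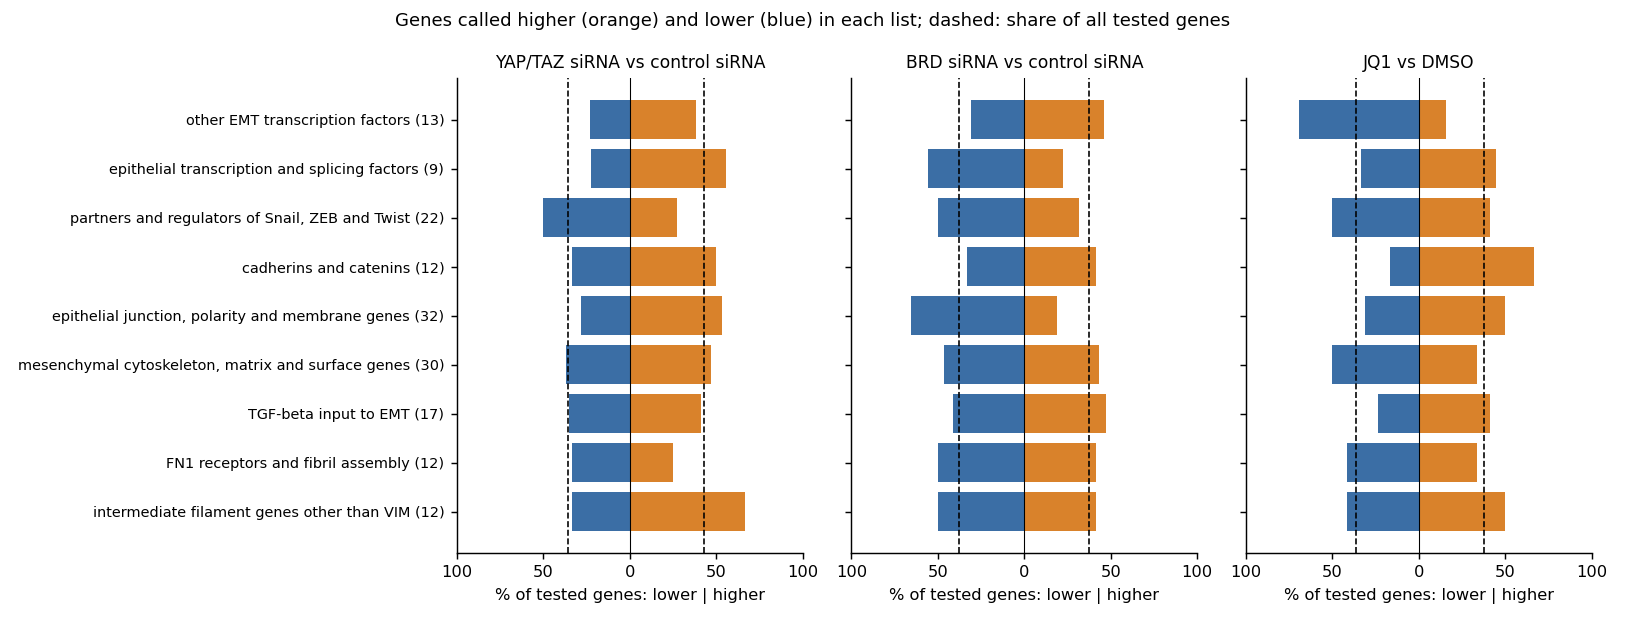
Share of the tested genes of each list (number in brackets) called higher (orange, to the right) or lower (blue, to the left) by limma in the 3 comparisons; dashed lines mark the share of all 13674 tested genes. JQ1 lowered 9 of 13 other EMT transcription factors, and BRD siRNA lowered 21 of 32 epithelial junction genes.

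Mesenchymal cytoskeleton, matrix and surface genes were split in every comparison. Of 30 in the table (40 listed), YAP/TAZ siRNA raised 14 and lowered 11, BRD siRNA raised 13 and lowered 14, and JQ1 raised 10 and lowered 15, with medians of 0.18, -0.16 and -0.23. The shares of all genes higher and lower were 43.1% and 35.9%, 37.6% and 37.6%, and 37.6% and 36.3%, so the knockdown splits were near the background. AXL, a receptor kinase, averaged 1450 with control siRNA and fell to 365.4 with mix 1 and 705.9 with mix 2 (-1.51, limma adjusted p = 6.87e-16). Matrix genes moved both ways with JQ1. COL1A1, a fibrillar collagen chain named as a cell type marker and not by its statistic, rose from 2.23 to 3.68 (0.54, limma adjusted p = 0.00623). VCAN, a proteoglycan, went from 4.93 to 0.386 (-2.10, limma adjusted p = 2.13e-12) and TNC (tenascin C) from 57.7 to 16.7 (-1.73, adjusted p = 9.51e-14). NT5E (CD73) rose from 461 to 1950 after BRD siRNA (2.06, limma adjusted p = 8.65e-18).

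Among receptors and assembly factors of FN1, 12 of 15 were in the table, with 3 higher and 4 lower after YAP/TAZ siRNA, 5 and 6 after BRD siRNA, and 4 and 5 with JQ1. The medians were 0.00795, -0.04 and -0.15. ITGAV, the alpha-V integrin, fell after YAP/TAZ siRNA (-1.83, limma adjusted p = 5.44e-18): control siRNA stood at 176.9, mix 1 at 103.9 and mix 2 at 22.9. That p-value leaves out a gap between the mixes of 2.135 on the log2 scale. LTBP1, which binds latent TGF-beta to the matrix, rose with FN1 after YAP/TAZ siRNA, from 37.2 to 179 (2.22, limma adjusted p = 3.24e-17), and fell with JQ1 from 17.1 to 9.34 (-0.81, adjusted p = 4.57e-09).

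The TGF-beta genes that feed into EMT, 17 of 17 in the table, gave 7 higher and 6 lower after YAP/TAZ siRNA (median 0.03), 8 and 7 after BRD siRNA (median -0.11) and 7 and 4 with JQ1 (median 0.04). Against DMSO the BRD siRNA counts became 11 higher and 4 lower with a median of 0.55, beside 5353 higher and 5422 lower over all genes. The ligands moved apart with JQ1 and also after both knockdowns. With JQ1, TGFB1 rose from 21.8 to 76.1 (1.76, limma adjusted p = 2.16e-13). TGFB2 fell from 83.5 to 24.6 (-1.72, limma adjusted p = 1.95e-15). After YAP/TAZ siRNA TGFB1 was at 1.33 (limma adjusted p = 1.33e-12) and TGFB2 at -0.82 (adjusted p = 2.14e-11). After BRD siRNA TGFB1 was at 0.77 (limma adjusted p = 1.18e-08) and TGFB2 at -0.98 (adjusted p = 1.54e-12). TGFBR1, the type I receptor, fell by 1.55 after YAP/TAZ siRNA (limma adjusted p = 1.1e-15).

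Of the intermediate filament genes other than VIM, 12 of 18 were in the table, with 8 higher and 4 lower after YAP/TAZ siRNA, 5 and 6 after BRD siRNA, and 6 and 5 with JQ1. KRT19, a simple epithelial keratin, rose from 205.4 to 1787 with JQ1 (3.11, limma adjusted p = 3.37e-19) and from 272.9 to 800.3 after YAP/TAZ siRNA (1.54, adjusted p = 4.87e-16). Luminal epithelial markers, 12 of 14 in the table, summed to 1322 to 1672 in the control siRNA, BRD siRNA and DMSO libraries, to 2588 to 2772 with YAP/TAZ siRNA and to 5476 to 5955 with JQ1. Much of the JQ1 rise was in the keratins KRT19 and KRT8 (528.7 to 2145). Of the 12, JQ1 raised 6 and lowered 2 (37.6% and 36.3% of all genes), with SPDEF at -2.115 (limma adjusted p = 4.05e-14). YAP/TAZ siRNA raised 11 and lowered 0 (43.1% and 35.9% of all genes), though FOXA1 and ELF3 entered the fit only through its libraries. The rise of the luminal sum with JQ1 thus stood beside a rise of VIM and a fall of EPCAM, and its part in those values was not tested. LMNB1, a nuclear lamin, fell in all 3 comparisons, from 232.4 to 22.8, from 232.4 to 36.6 and from 239.4 to 31.7.

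Across the 7 group means, the genes most like each EMT gene were ranked by Pearson correlation of log2 values among 10774 genes with a mean of at least 5. These are descriptions over 7 points that share their scaling and, in part, their controls. SNAI2 had MPP6 as its closest match (r = 0.990) and 218 genes above 0.9. EPCAM came closest to CCDC34 (r = 0.991, 97 genes above 0.9), VIM to FAM104B (r = 0.986, 45 genes), ZEB2 to ALG3 (r = 0.972, 37 genes), FN1 to FAM174A (r = 0.963, 62 genes) and ZEB1 to L3MBTL2 (r = 0.963, 28 genes).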

How the data were processed

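Per the labels' protocols, total RNA was depleted of ribosomal RNA and made into stranded libraries. CASAVA 1.8.4, TopHat2 2.0.5, HTSeq 0.6.0, edgeR, R 3.0.0 and the build hg19 are named in the submitters' processing notes; no source used here gives their role or order, the annotation, the strand setting or the gene filter. The deposited table holds a scaled signal: reads relative to a library size that the authors had multiplied by a scaling factor, called scaled RPM here, although the plan had assumed CPM. Whole reads were recovered for 100% of values (tolerance 0.01), and 1 read was worth 0.0276 to 0.0602. The table held 0 columns of other samples and 0 lines naming no gene.

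Groups came from the sample titles. Values were taken as log2(value + 1), and 13674 genes, those reaching 1 in 2 or more libraries, entered a single model in limma 3.58.1 under R 4.3.3, which had group terms, a variance trend, and 7 residual and 13.2 prior degrees of freedom (median residual SD 0.0852). Knockdown effects are the mean of both mixes against control siRNA. Two-sided p-values had a Benjamini-Hochberg adjustment over all tested genes, separately by comparison, and 0.05 was the threshold. The fit was tested on simulated data.

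The members and gene lists were chosen with earlier results of these data known. Named genes were the members, the targets, the cell type markers (COL1A1 among them), the antisense genes ZEB1-AS1 and VIM-AS1, and the genes most like each member. From each list, up to 3 genes with the largest moderated statistic in each main comparison were added. Not all of them are reported here. List counts came from textbook lists and carry no test. Exon lengths came from GENCODE 29 (GRCh38) and served only levels per kilobase. Alternatives were scaling by median ratios, upper quartiles or plain totals, pseudocounts of 0.25 and 4, dropping the filter or setting it at 5, blocking on the replicate number, a constant prior variance, fits restricted to a comparison's own libraries, edgeR 4.0.16 and DESeq2 1.42.0 on the recovered reads, each library left out, DMSO as control, and each mix alone. Leaving out a control library for the SNAI1 read ratios was chosen after seeing the data.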

Additional observations from a re-analysis of the deposited data

Results flagged for a closer look

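The 2 siRNA mixes of 1 target gave different levels of several EMT genes, by the limma test of the difference between mixes. Between YAP/TAZ mix 1 and mix 2, the log2 difference (mix 1 minus mix 2) was -0.40 for VIM (limma adjusted p = 0.000103), -0.53 for EPCAM (adjusted p = 9.7e-05), 0.20 for FN1 (adjusted p = 0.0333), -0.16 for ZEB1 (adjusted p = 0.0419) and 0.23 for SNAI2 (adjusted p = 0.046). The FN1, ZEB1 and SNAI2 differences lost their calls when single libraries were left out, the furthest being 0.12 for FN1 (adjusted p = 0.295) and -0.088 for ZEB1 (adjusted p = 0.355) without mix 2 replicate 2, and 0.075 for SNAI2 (adjusted p = 0.563) without mix 1 replicate 2, by limma. Between BRD mix A and mix B, it was -0.45 for FN1 (limma adjusted p = 7.79e-05), 0.32 for ZEB1 (adjusted p = 0.000386), -0.21 for VIM (adjusted p = 0.0261) and 0.27 for EPCAM (adjusted p = 0.0277). The last pair lost their calls without single libraries, the furthest being -0.18 for VIM (adjusted p = 0.166) without mix B replicate 2 and 0.19 for EPCAM (adjusted p = 0.212) without mix A replicate 2, by limma. FN1 and SNAI2 after YAP/TAZ siRNA, and EPCAM and SNAI2 after BRD siRNA, kept 1 direction in both mixes.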

How the results depend on the processing

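Of 1042 recomputed fold changes of the EMT genes, 917 kept their direction and side of the threshold, 73 lost and 23 gained a call, and 29 changed sign. These counts include SNAI1, which entered the fit only through JQ1 and whose limma calls are not given here. Some of the lost calls and sign changes are those of SNAI1. FN1, SNAI2 and ZEB2 after YAP/TAZ siRNA, SNAI2 and EPCAM after BRD siRNA, and VIM, ZEB1, ZEB2 and EPCAM with JQ1 kept their calls in every alternative. The number of EMT genes called, SNAI1 left out, moved as follows. For BRD siRNA it was 4 with upper-quartile scaling, plain totals or DMSO as control and 5 with mix A alone (2 reported). For YAP/TAZ siRNA it was 5 with DMSO as control or mix 2 alone (3 reported). For DMSO against control siRNA it was 2 with upper-quartile scaling or plain totals (4 reported). For mix 1 against mix 2 it was 3 with upper-quartile scaling, plain totals, no variance trend or DESeq2 (5 reported), and for mix A against mix B 2 with only those libraries (4 reported). Without single libraries the last 3 counts ranged from 2 to 4, from 2 to 4 and from 2 to 3. Signs changed for SNAI1 in the JQ1 effect minus the BRD siRNA effect (-0.12 at pseudocount 0.25, -0.42 with edgeR, -0.45 with DESeq2, and -0.069 to 0.167 without single libraries) and minus the YAP/TAZ siRNA effect (-0.11, -0.37 and -0.39 likewise, -0.024 with plain totals, and -0.064 to 0.172 without single libraries). They also changed for SNAI1 in mix A against mix B (-0.011 upper-quartile, -0.019 plain totals, -0.075 to 0.078 without single libraries) and ZEB2 in mix 1 against mix 2 (-0.022 upper-quartile, -0.024 plain totals, -0.12 to 0.13 without single libraries). ZEB1 after BRD siRNA turned to -0.067 with plain totals, -0.066 with DMSO as control and -0.10 with mix B alone, and ranged from -0.037 to 0.154 without single libraries. ZEB1 after YAP/TAZ siRNA ranged from -0.0013 to 0.19 without single libraries and was -0.031 against DMSO. With plain totals ZEB1 in DMSO against control siRNA turned to -0.0036 and ZEB2 after BRD siRNA to -0.00066. VIM after YAP/TAZ siRNA turned to -0.36 against DMSO and -0.16 with mix 1, EPCAM after YAP/TAZ siRNA to 0.11 with mix 2, and FN1 after BRD siRNA to 0.10 with mix B. Beyond each alternative's construction, the cause was not tested. Plain totals shifted the median of all genes by -0.12 for BRD siRNA and for DMSO against control siRNA, and by -0.11 for the JQ1 effect minus the YAP/TAZ siRNA effect. Deviations of same-numbered replicates had correlations of -0.373 to 0.254 (median -0.0106, 21 pairs), with no common sign. With 2 libraries per group this cannot settle whether the numbers pair some of the samples. A fit with a replicate block called 3 EMT genes after YAP/TAZ siRNA and 2 after BRD siRNA, as without it, and 10799 and 10276 genes in all. On the recovered reads, edgeR called 10617 genes after YAP/TAZ siRNA, 10160 after BRD siRNA and 10329 with JQ1, and DESeq2 10006, 9603 and 9793. The low read counts of SNAI1 limit what can be said of it.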
